A study of Caenorhabditis elegans with 20 samples.

Results

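Transcript levels were compared between 1-day-old adult *Caenorhabditis elegans* hermaphrodites that carried the *daf-2*(e1370) mutation with or without a working *daf-16* gene. The comparison used the 10 arrays labelled e1370 or e1370df50, out of 20 in the study, and covered all probe sets apart from Affymetrix controls, 22548 of 22625. The genotype with *daf-16* was *glp-4*(bn2); *daf-2*(e1370), and the genotype without it added the mgDf50 deletion of *daf-16*. Each had 5 arrays, and both carried *glp-4*(bn2), a mutation that blocks most growth of the germ line at high temperature. Both were therefore *daf-2* mutants, and neither was a wild-type reference. Eggs hatched at 20 °C, larvae grew at 15 °C, and most animals had reached the L4 stage when they were moved to 25 °C. Sterile adults were collected 1 day later, and 8 plates made up 1 biological replicate. The 10 arrays of the other allele, *daf-2*(m577), with and without *daf-16* on the same *glp-4*(bn2) background, served only for comparison.

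*daf-2* encodes the worm's insulin/IGF-1 receptor. When it is active, a kinase cascade through *age-1*, *pdk-1* and the *akt* genes keeps the FOXO transcription factor DAF-16 out of the nucleus. When the receptor is weakened, DAF-16 enters the nucleus and changes the transcription of many genes, and the long life, stress resistance and fat storage of *daf-2* mutants depend on it. The intestine, which digests food, stores fat and secretes yolk and antimicrobial proteins, is a major site of DAF-16 action.

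Values are levels on the log2 scale, as the authors normalized them with RMA, so a difference of 1 is a 2-fold difference. Every difference is the mean with *daf-16* minus the mean without it, 5 arrays a side, ± its standard error (SE) from a limma fit. That SE rests on 1 spread per probe set shared by all 4 genotypes, m577 included, and not on the e1370 arrays alone. Levels are means ± SD (n = 5). Array values are listed in the order of replicates 1 to 5. A probe set was called at an adjusted p under 0.05, from a limma fit to all 20 arrays adjusted over the 22548 probe sets, and "rose" and "fell" are used only for called probe sets, with *daf-16* present relative to its absence. Genotype means at or below 5.31, the highest genotype mean among 15 Bacillus control probe sets that match no worm gene, were counted as background, and a difference that starts from there is limited in size. In whole animals, fewer cells of a type and less RNA per cell cannot be told apart.

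Likeness within a genotype varied. Replicate 2 without *daf-16* stood apart, with a mean correlation of 0.842 with the other arrays of its genotype, against 0.887 to 0.937 for the other 9 arrays. Sperm markers were low on replicate 4 with *daf-16* (mean level 7.70) and on replicate 5 without it (7.27), against 8.54 to 10.20 on the other arrays, and oocyte and germ cell markers ranged from 7.73 to 10.05. Transcripts of sperm and oocytes were thus measured in animals that the labels call sterile. Of the markers of other tissues, all 15 neuronal, all 26 muscle and 29 of 33 hypodermal genes had both genotype means above background.

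*daf-16* was covered by 4 probe sets. Probe set 175678_at read 7.16, 6.16, 7.09, 7.52 and 6.93 with *daf-16* against 6.47, 4.98, 6.52, 5.95 and 6.06 in its absence, a difference of 0.98 ± 0.27 (limma adjusted p = 0.0435) with overlapping arrays. Its call was lost without replicates 1, 3, 4 or 5 with *daf-16* or replicates 2, 4 or 5 lacking it (adjusted p up to 0.128). The other *daf-16* probe sets differed by 0.35 ± 0.38, 0.53 ± 0.24 and 0.40 ± 0.35, and none was called. In the deletion genotype 175823_s_at (7.65 ± 0.49) and 188176_s_at (7.43 ± 0.15) still read above background. Their levels with *daf-16* were 8.00 ± 0.52 and 7.83 ± 0.55. Probe set 181992_s_at was at background in the deletion genotype (5.21 ± 0.47). The sources used here do not say which of the 4 lie in the deleted stretch, so their levels check the genotype only in part. The 4 *daf-2* probe sets had differences from -0.05 to 0.20, none called. *glp-4*, a valyl-tRNA synthetase gene, differed by -0.98 ± 0.38 (limma adjusted p = 0.242).

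With *daf-16* present, 541 probe sets rose and 446 fell, 987 in all or 4.38% of those tested (2.4% higher and 1.98% lower). The rises and falls were of similar size, with medians of 1.45 and -1.49. At least 2-fold differences made up 390 of the rises and 341 of the falls, and 17 rises and 13 falls were at least 16-fold. For 852 probe sets (3.78% of all) every array of 1 genotype was above every array of the other, of which 685 were called. For 87 rises and 34 falls, 1 genotype mean was at background.

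Taken by gene, with the probe set of highest mean level standing for each of 17118 genes, 824 genes were called (4.81%), 455 of them higher (2.66%) and 369 lower (2.16%). The median difference over all genes was -0.001 and its quartiles were -0.13 and 0.13. These shares are the background against which each gene list below is read. Counts for a list were also taken in a fit of the e1370 arrays alone, with the number in each array's other name as a block, in a test against a 1.2-fold difference, with array quality weights, with sperm and oocyte marker means as germ cell covariates, without both arrays low in sperm markers, and under the other settings tried. Of 31 counts of 3 or more, 21 moved by more than 1.5 times under at least 1 of these, and their values stand beside the list. Of 33 counts of 1 or 2, 20 did so, and 12 were 0 under at least 1 setting. Of these, rises numbered 0 with the e1370 arrays alone for lysozymes, lysosomal genes, short-chain dehydrogenases, cytosolic chaperones, and desaturases and elongases. The same held for rises in the glyoxylate cycle and gluconeogenesis. Falls numbered 0 in that fit for aldehyde dehydrogenases, claudin-like proteins, fatty acid binding proteins, yolk proteins and tyrosine breakdown. Genes known only by a sequence name made up 45.9% of the genes that rose and 37.4% of those that fell, against 39.2% of all genes. The plot of genotype means shows that called genes lay on both sides of the diagonal at nearly all levels. Among the 5637 probe sets with the lowest mean levels (4.13 to 5.54) 0.993% rose and 0.195% fell, and among the 5637 with the highest (8.05 or more) 3.6% rose and 3.92% fell.

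**Figure D1:**
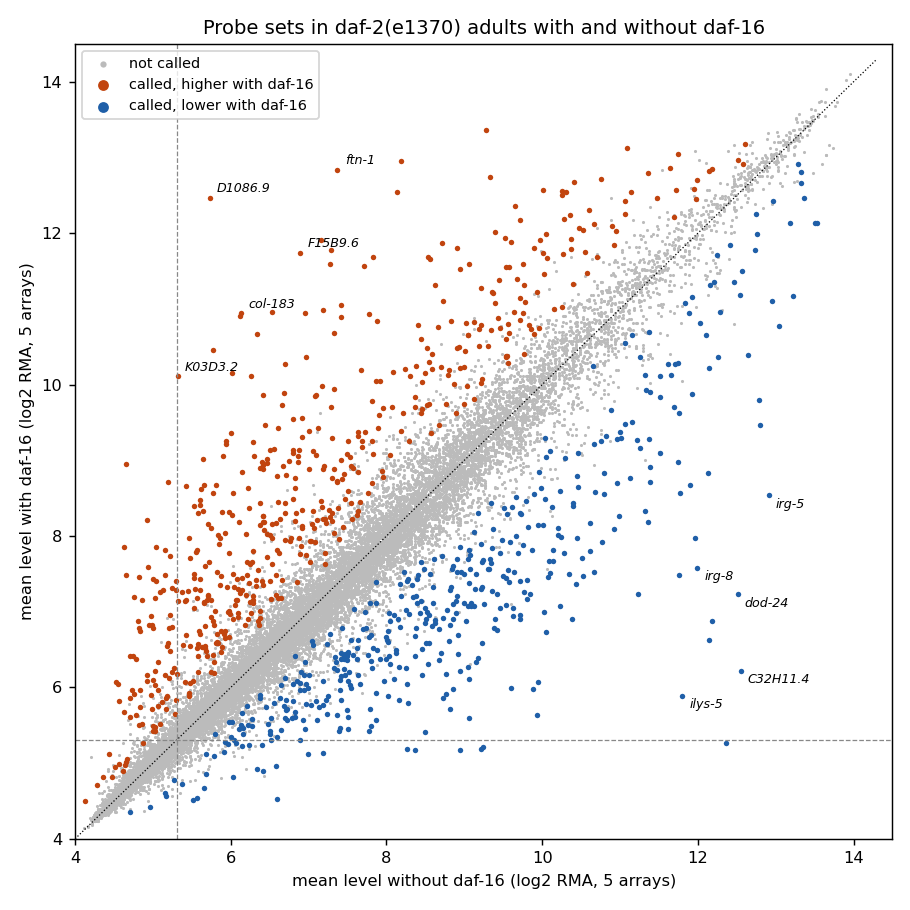
Mean level of each probe set over 5 arrays without *daf-16* (x axis) and over 5 arrays with it (y axis), both log2 RMA. Orange points are the 541 called rises, blue points the 446 called falls, grey points the rest, the dotted line marks equal levels, dashed lines mark the background level of 5.31, and the 5 largest named rises and falls carry their names.

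The largest rise was that of *D1086.9*, a gene without an assigned function, which read 11.89, 11.51, 13.15, 13.02 and 12.77 with *daf-16* against 5.52, 6.34, 5.53, 5.98 and 5.30 in its absence. It differed by 6.73 ± 0.38, 106.0-fold (limma adjusted p = 1.66e-09), and went from just above background to among the higher levels on the arrays. *ftn-1*, a ferritin heavy chain that stores iron, read 13.21, 12.57, 13.14, 12.71 and 12.59 with *daf-16* against 7.31, 8.17, 6.94, 7.36 and 7.07 in its absence. Its lowest array with *daf-16* lay far above its highest without, and the difference was 5.47 ± 0.23 (adjusted p = 2.76e-11). *sod-3*, the mitochondrial manganese superoxide dismutase widely used as a reporter of DAF-16 activity, read 12.03, 11.71, 12.15, 11.60 and 12.06 with *daf-16* against 7.52, 7.63, 6.68, 7.36 and 6.59 in its absence. All arrays with *daf-16* were near the top of its range and all without near the bottom, a difference of 4.75 ± 0.25 (adjusted p = 8.61e-10).

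*dod-6*, 1 of the genes named for being downstream of *daf-16*, read 13.30, 13.15, 13.16, 12.85 and 12.27 with *daf-16* against 8.93, 8.51, 8.36, 8.27 and 6.90 in its absence. Its difference was 4.75 ± 0.47, and like *ftn-1* it was well expressed even without *daf-16*. *col-183*, a cuticle collagen, read 10.48, 10.66, 11.68, 11.94 and 9.97 with *daf-16* against 6.25, 6.83, 5.96, 6.07 and 5.55 in its absence, a difference of 4.81 ± 0.52. *scl-20*, a secreted SCP-like protein, read 11.61, 11.23, 10.03, 9.55 and 9.87 with *daf-16* against 5.47, 7.14, 5.25, 5.70 and 5.29 in its absence, a difference of 4.69 ± 0.44. *hsp-12.3*, a small heat shock protein, read 11.91, 11.95, 12.03, 12.03 and 10.99 with *daf-16* against 7.23, 8.85, 6.46, 7.29 and 6.63 in its absence, a difference of 4.49 ± 0.37. For both of these genes replicate 2 without *daf-16*, the array that stands apart, was higher than the other 4 but still below every array with *daf-16*. The remaining genes among the 15 largest rises were *F15B9.6* (4.85 ± 0.45), *K03D3.2* (4.79 ± 0.33), the transthyretin-like *ttr-26* (4.78 ± 0.39), the claudin-like *clc-24* (4.44 ± 0.25), the C-type lectin *clec-61* (4.33 ± 0.50), *spi-2* (4.32 ± 0.22), *cdr-3* (4.29 ± 0.29) and *Y6E2A.4* (4.14 ± 0.47). Genes in this group were chosen for non-overlapping arrays, so that separation is not a finding.

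The largest fall was that of *C32H11.4*, a gene without an assigned function, which read 6.52, 6.47, 6.47, 5.54 and 6.11 with *daf-16* against 12.80, 12.60, 12.46, 13.03 and 11.84 in its absence. The difference was -6.32 ± 0.39 (limma adjusted p = 6.25e-09), so a transcript near the top of the range without *daf-16* was close to background with it. *ilys-5*, an invertebrate-type lysozyme, read 6.68, 5.95, 5.88, 5.23 and 5.72 with *daf-16* against 12.47, 11.79, 11.93, 11.56 and 11.27 in its absence on its most changed probe set, a difference of -5.91 ± 0.24. *dod-24*, a CUB-like gene induced by pathogens, read 8.57, 6.40, 6.73, 7.16 and 7.30 with *daf-16* against 12.51, 12.26, 12.42, 12.83 and 12.51 in its absence, a difference of -5.27 ± 0.34 (adjusted p = 1.69e-08).

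*irg-5* and *irg-8*, named as genes of the response to infection, had differences of -4.37 ± 0.35 and -4.41 ± 0.30. The 5 arrays without *daf-16* were nearly identical for *irg-5*, at 12.90, 12.86, 12.90, 12.97 and 12.93, while those with it spread from 6.69 to 9.69. *asp-17*, an aspartyl protease, read 7.52, 9.00, 7.18, 7.39 and 6.33 with *daf-16* against 11.43, 12.43, 12.51, 11.94 and 10.50 in its absence, a difference of -4.28 ± 0.45. *pho-1*, an intestinal acid phosphatase, read 6.70, 5.07, 4.84, 4.53 and 4.71 with *daf-16* against 9.69, 8.71, 8.73, 9.21 and 8.39 in its absence on its most changed probe set, where replicate 1 with *daf-16* was well above the other 4. The remaining 15 largest falls were *C17H12.6* (-4.30 ± 0.28), *C40H1.7* (-4.04 ± 0.32), the O-acyltransferase homologue *oac-6* (-4.03 ± 0.29), the C-type lectin *clec-265* (-4.0 ± 0.50), *F28H7.3* (-3.98 ± 0.52), *F55G11.2* (-3.90 ± 0.50), *sdz-6* (-3.88 ± 0.29) and *dod-22* (-3.61 ± 0.30). All 30 of these genes kept their calls under every other setting, including without any single array.

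**Figure D2:**
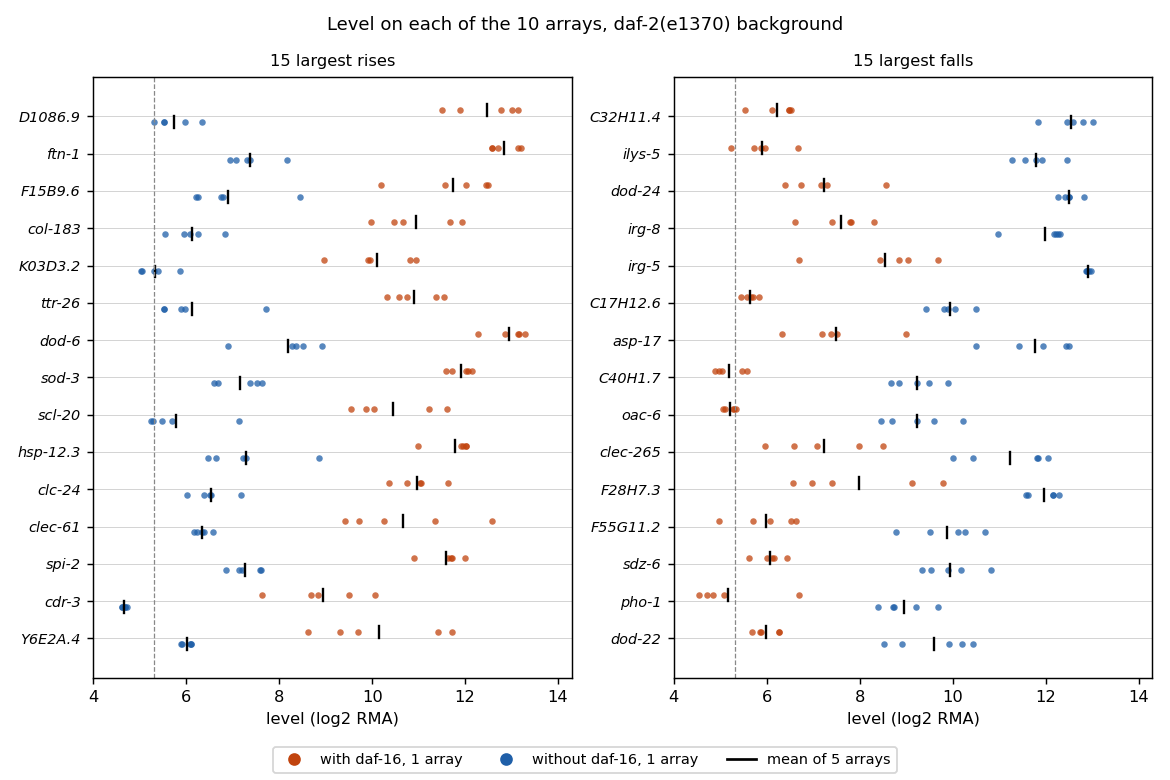
Level on each array (log2 RMA, x axis) for the 15 genes with the largest rise (left) and the 15 with the largest fall (right), with orange points for the 5 arrays with *daf-16*, blue points for the 5 without, black bars for means of 5 and a dashed line at the background level of 5.31. The 2 genotypes do not overlap for any gene shown, because non-overlap was part of the choice.

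Genes that handle reactive oxygen and metals held several of the largest rises, with falls beside them. Superoxide dismutases remove superoxide, and of 6 measured superoxide dismutase and catalase genes 3 rose and none fell, with a median difference of 0.81. Besides *sod-3*, these were *sod-5* (2.42 ± 0.41), a cytosolic copper-zinc form, and *sod-1* (0.71 ± 0.12), the main cytosolic form. *sod-4*, the extracellular form, differed by 0.91 ± 0.35, *sod-2*, the main mitochondrial form, by 0.42 ± 0.20, and the peroxisomal catalase *ctl-2* by 0.39 ± 0.31, none of them called. The arrays also carry 3 worm catalase control probe sets outside the tested set, and these differed by 1.55, 1.61 and 1.71. None of 14 peroxiredoxin, thioredoxin and glutaredoxin genes was called (median 0.21), with *trx-1* at 0.89 ± 0.29 and *trx-2* at 0.68 ± 0.36.

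Of 16 ferritin and metal-binding genes 4 rose and 3 fell (median 0.01). The metallothionein *mtl-1*, which binds zinc and cadmium, read 13.65, 13.65, 13.42, 13.04 and 13.06 with *daf-16* against 8.09, 10.94, 9.05, 8.27 and 10.04 in its absence, a difference of 4.09 ± 0.43 (limma adjusted p = 7.23e-06), with every array with *daf-16* above every array without. Its paralogue *mtl-2* fell by 0.67 ± 0.13. Of the cadmium-responsive genes *cdr-3* rose by 4.29 ± 0.29 from background and *cdr-2* by 1.2 ± 0.17, while *cdr-1* fell by 2.11 ± 0.18. The second ferritin, *ftn-2*, fell by 0.55 ± 0.15, which is small beside the rise of *ftn-1*, and its call was lost without replicates 2, 4 or 5 with *daf-16* or replicates 1, 2 or 4 lacking it (adjusted p up to 0.111). Metal-binding falls numbered 1 with the e1370 arrays alone or the 1.2-fold test.

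Small heat shock proteins hold unfolded proteins in solution, and of 12 measured, 4 rose and 1 fell (median 0.54). *hsp-12.3* had the largest rise of the 12. *hsp-12.6* read 7.92, 8.35, 9.88, 9.26 and 5.64 with *daf-16* against 4.88, 5.36, 4.71, 4.87 and 4.79 in its absence, a difference of 3.29 ± 0.54, and without *daf-16* its mean was at background. *hsp-16.20* (1.49 ± 0.28) and *hsp-16.21* (2.82 ± 0.43) also rose from background, whereas the related *hsp-16.2* (0.78 ± 0.51) and *hsp-16.41* (0.09 ± 0.48) were not called. On replicate 5 with *daf-16*, *hsp-16.20* (4.77) and *hsp-16.21* (5.25) stayed below the background level of 5.31. The call of *hsp-16.20* was lost under 1 other setting (limma adjusted p up to 0.0821). *hsp-17* fell by 1.63 ± 0.26. The other 5, *hsp-12.1*, *hsp-12.2*, *hsp-25*, *hsp-43* and *sip-1*, lay between -0.50 ± 0.56 and 1.14 ± 0.39 and were not called.

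Of 46 cytosolic chaperone genes 1 rose, the inducible *hsp-70* (2.53 ± 0.45), and none fell (median -0.06). Among 17 genes of folding and stress in the endoplasmic reticulum 2 fell and none rose (median -0.28). These were *ckb-2*, a choline kinase gene (-1.85 ± 0.31), and the protein disulphide isomerase *pdi-6* (-0.77 ± 0.18), whose call was lost without replicates 1, 3 or 4 lacking *daf-16* (adjusted p up to 0.058). *ckb-2* is also counted among the falls of the methionine cycle and phosphocholine list below, so the lists are not separate. No gene of 8 in the mitochondrial stress response was called, with the chaperone genes *hsp-6* at -0.21 ± 0.40 and *hsp-60* at -0.04 ± 0.31. The count for endoplasmic reticulum genes lower was 1 without replicates 1, 3 or 4 lacking *daf-16*, 4 without replicate 2 lacking *daf-16*.

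Enzymes that modify foreign and fatty compounds changed in both directions. Cytochrome P450 enzymes oxidise such compounds, and 9 of 75 rose and 8 fell (10.7%), with a median of 0.07. *cyp-35B1* read 10.50, 8.52, 10.85, 9.80 and 9.62 with *daf-16* against 5.87, 5.82, 6.45, 7.14 and 6.82 in its absence, a difference of 3.44 ± 0.36 (limma adjusted p = 6.07e-06), and *cyp-13B1* (2.69 ± 0.26), *cyp-34A9* (2.16 ± 0.38), *cyp-34A8* (1.88 ± 0.31) and *cyp-33C2* (1.88 ± 0.27) rose with it. *cyp-35A3* (-2.59 ± 0.44), *cyp-13A2* (-1.97 ± 0.23), *cyp-37B1* (-1.35 ± 0.26) and *cyp-33C4* (-1.05 ± 0.16) fell, so members of the cyp-35 class stood on opposite sides. *cyp-14A5* (-1.89 ± 0.45) fell too, with its call lost without replicates 4 or 5 lacking *daf-16* (adjusted p up to 0.0574). The count for P450 genes lower was 5 without replicate 4 lacking *daf-16*. P450 rises numbered 5 with the e1370 arrays alone or the 1.2-fold test. Their falls numbered 5 with the e1370 arrays alone, the other-name block, the 1.2-fold test or the low-sperm arrays left out.

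Glutathione S-transferases, which join glutathione to reactive compounds, rose in 8 of 45 cases (17.8%) and fell in 2 (4.44%), with a median of 0.25. *gst-3* read 9.64, 10.32, 9.03, 9.28 and 8.51 with *daf-16* against 5.88, 6.73, 5.65, 6.00 and 5.76 in its absence, a difference of 3.35 ± 0.27, and *gst-29* (2.53 ± 0.29), *gst-15* (2.47 ± 0.20), the omega-class *gsto-1* (2.34 ± 0.36) and *gst-41* (1.94 ± 0.27) also rose. *gst-38* went the other way and read 9.36, 9.57, 7.74, 7.37 and 7.59 with *daf-16* against 10.77, 11.95, 10.53, 11.89 and 11.47 in its absence, a difference of -2.99 ± 0.43. *gst-28* fell by 1.16 ± 0.29, a call lost without replicates 3, 4 or 5 with *daf-16* or replicates 1, 2 or 4 lacking it (adjusted p up to 0.0827). UDP-glucuronosyltransferases, which attach sugars, fell in 15 of 64 cases (23.4%) and rose in 5 (7.81%), with a median of -0.08. *ugt-16* (-2.30 ± 0.35), *ugt-9* (-2.19 ± 0.34), *ugt-43* (-1.86 ± 0.38), *ugt-29* (-1.75 ± 0.27) and *ugt-26* (-1.70 ± 0.38) fell, and *ugt-41* (2.06 ± 0.33), *ugt-27* (1.96 ± 0.24), *ugt-11* (1.55 ± 0.33) and *ugt-40* (0.86 ± 0.18) rose. *ugt-66* rose too (1.69 ± 0.45), a call lost without replicates 1, 2, 3 or 5 with *daf-16* or replicates 1, 3 or 5 lacking it (adjusted p up to 0.118). UDP-glucuronosyltransferase rises numbered 2 with the e1370 arrays alone and 3 with the 1.2-fold test. Their falls numbered 6 with the e1370 arrays alone or the other-name block and 9 with the 1.2-fold test.

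Of 56 ABC transporter genes 4 fell and none rose (median -0.19), namely *pgp-5* (-2.31 ± 0.35) and *pgp-8* (-0.69 ± 0.14) of the P-glycoproteins, the peroxisomal *pmp-1* (-1.58 ± 0.25) and *haf-6* (-1.14 ± 0.20). The count for ABC transporters lower was 7 without replicate 2 lacking *daf-16*. Transporter falls numbered 7 with array weights. Among 30 short-chain dehydrogenases *dhs-9* (1.14 ± 0.26) and *dhs-20* (0.86 ± 0.19) rose and none fell (median 0.28). Short-chain dehydrogenase rises numbered 0 with the e1370 arrays alone or the 1.2-fold test and 1 with cyclic loess or the other-name block. Among 13 aldehyde dehydrogenases *alh-2* rose by 2.24 ± 0.25 and *alh-13* fell by 1.91 ± 0.41 (median 0.01). *fmo-1* fell by 2.82 ± 0.23, while the other 4 flavin monooxygenases were not called, *fmo-2* at 0.04 ± 0.25 among them. The glyoxalase *djr-1.2*, which removes methylglyoxal, rose by 2.69 ± 0.22, while *glod-4* differed by 0.70 ± 0.30 and *djr-1.1* by 0.37 ± 0.30, neither called.

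**Figure D3:**
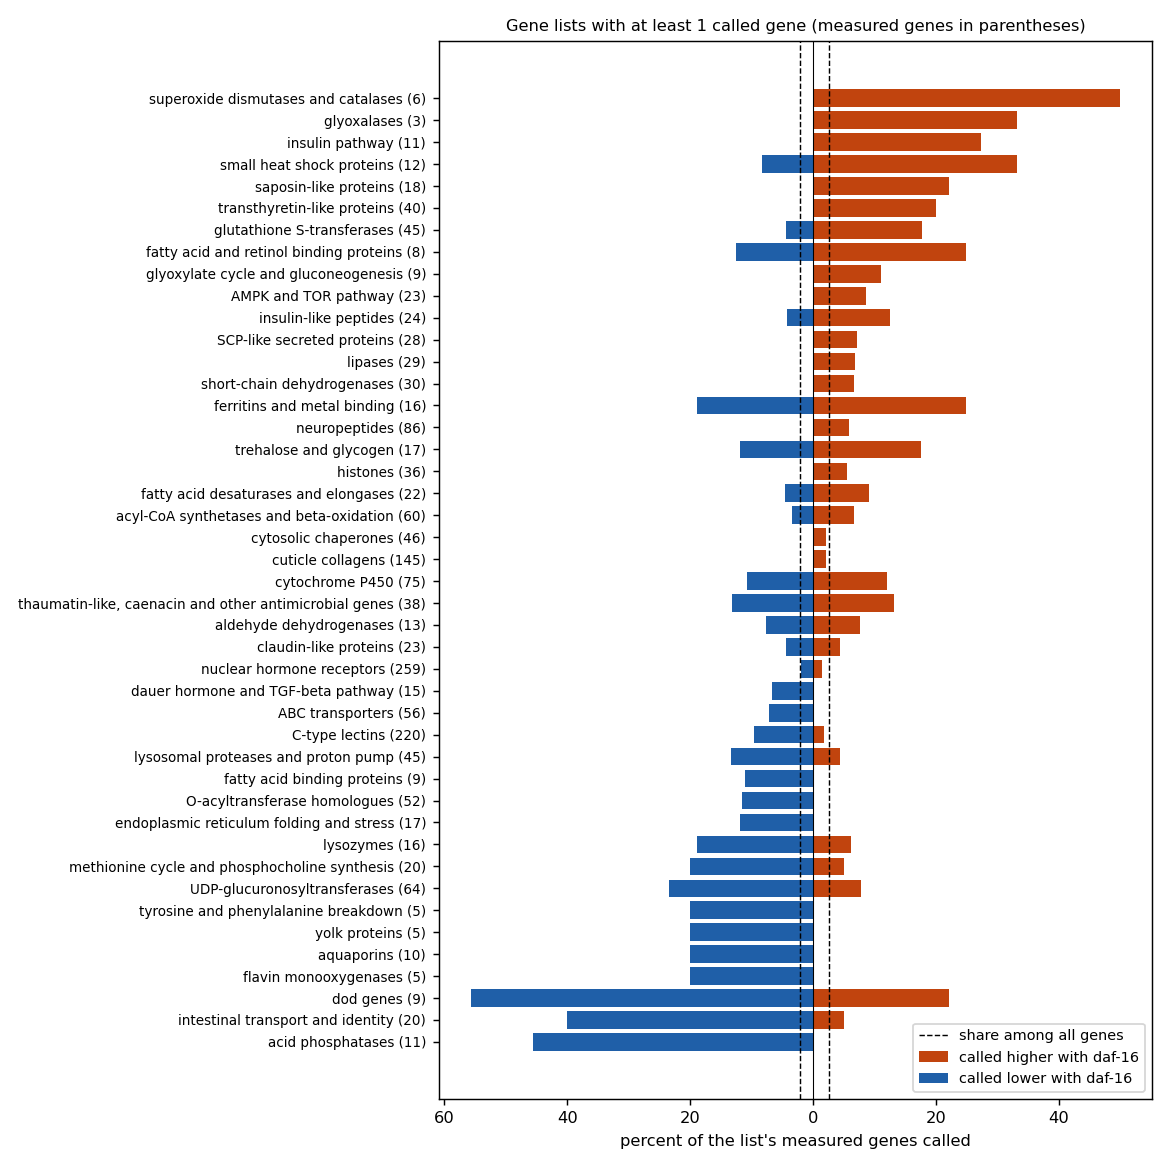
Percent of measured genes in each list called higher (orange, to the right) or lower (blue, to the left) with *daf-16*, for the lists with at least 1 called gene, with the number measured in parentheses. Dashed lines mark the shares among all 17118 genes, 2.66% higher and 2.16% lower.

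C-type lectins, which bind sugars and respond to bacteria, fell in 21 of 220 cases (9.55%) and rose in 4 (1.82%), with a median of -0.02. *clec-265*, *clec-174* (-3.17 ± 0.56), *clec-66* (-2.77 ± 0.40), *clec-4* (-2.65 ± 0.38) and *clec-67* (-2.50 ± 0.53) fell, and *clec-61*, *clec-76* (2.25 ± 0.33), *clec-17* (2.12 ± 0.33) and *clec-82* (1.55 ± 0.24) rose. Lectin falls numbered 9 with the other-name block, 11 with the e1370 arrays alone and 13 with the 1.2-fold test. Of 16 lysozymes, which cut bacterial cell walls, 3 fell and 1 rose (median -0.09). After *ilys-5*, these were *lys-3* (-1.50 ± 0.37) and *lys-1* (-0.54 ± 0.15), which fell, and *lys-7* (1.31 ± 0.34), which rose. Each of these 3 calls was lost when any 1 of several arrays was left out. For *lys-3* these arrays were replicates 3 or 5 with *daf-16* or replicate 4 lacking it (limma adjusted p up to 0.0726). For *lys-1* they were replicates 3, 4 or 5 with *daf-16* or replicates 1, 2, 3, 4 or 5 lacking it (adjusted p up to 0.0994). For *lys-7* they were replicates 1, 3 or 4 with *daf-16* (adjusted p up to 0.0863). Lysozyme falls numbered 1 with the e1370 arrays alone, the other-name block, the 1.2-fold test or the low-sperm arrays left out.

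Of 38 thaumatin-like, caenacin and other antimicrobial genes 5 rose and 5 fell (median 0.01). The risers were *fipr-26* (3.86 ± 0.32) and *fipr-24* (3.21 ± 0.45), fungus-induced-protein related genes, the defensin-like *abf-2* (3.62 ± 0.53) and *abf-1* (2.10 ± 0.47), and the thaumatin-like *thn-1* (1.82 ± 0.29). All 5 fallers bore the infection-response name: *irg-8*, *irg-5*, *irg-6* (-2.34 ± 0.42), *irg-4* (-2.04 ± 0.34) and *irg-1* (-1.06 ± 0.23). The count for these antimicrobial genes higher was 8 without replicate 2 lacking *daf-16*. Antimicrobial falls numbered 10 with the germ cell covariates. Saposin-like proteins, which can pierce membranes, rose in 4 of 18 cases and fell in none (median 0.56): *spp-13* (2.86 ± 0.31), *spp-27* (2.06 ± 0.42), *spp-12* (1.97 ± 0.31) and *spp-1* (1.36 ± 0.32). The call of *spp-1* was lost without replicate 1 with *daf-16* or replicate 3 lacking it (adjusted p up to 0.0572). Saposin-like rises numbered 2 with the e1370 arrays alone.

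Transthyretin-like proteins, a family of secreted proteins enlarged in nematodes, rose in 8 of 40 cases (20.0%) and fell in none (median 0.33). *ttr-26* read 11.37, 11.54, 10.74, 10.57 and 10.31 with *daf-16* against 5.52, 7.71, 5.51, 5.97 and 5.89 in its absence, and *ttr-23* (3.16 ± 0.45), *ttr-5* (2.29 ± 0.29), *ttr-25* (1.90 ± 0.35) and *ttr-44* (1.51 ± 0.24) were the next largest. Transthyretin-like rises numbered 4 with the e1370 arrays alone. Of 28 SCP-like genes *scl-20* and *vap-2* (1.68 ± 0.33) rose. Of 23 claudin-like genes *clc-24* rose and *clc-19* fell by 2.24 ± 0.42. The count for claudin-like proteins higher was 2 without replicate 3 with *daf-16*, 4 without replicate 2 lacking *daf-16*. O-acyltransferase homologues, membrane proteins of largely unknown substrate, fell in 6 of 52 cases and rose in none (median -0.03), led by *oac-6*, *oac-20* (-3.20 ± 0.29), *oac-14* (-2.30 ± 0.34), *oac-59* (-1.98 ± 0.28) and *oac-32* (-1.58 ± 0.37). Of the 9 measured dod genes 2 rose and 5 fell (median -1.36). The risers were *dod-6* and *dod-3* (3.85 ± 0.36), and the fallers *dod-24*, *dod-22*, *dod-23* (-3.34 ± 0.23), *dod-17* (-2.51 ± 0.36) and *dod-19* (-1.36 ± 0.28), while *dod-18* (0.47 ± 0.40) and *dod-20* (-0.35 ± 0.17) were not called. The dod genes were named in earlier work for responses to *daf-16*, so their changes are no independent evidence.

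Of 20 genes of intestinal transport and identity, 8 fell and 1 rose, with a median of -0.93 against -0.001 over all genes. Intestinal gene falls numbered 4 with the e1370 arrays alone. The mean of the 20 ran from 7.94 to 8.49 on arrays with *daf-16* and from 8.58 to 9.79 on those without, so the groups did not overlap. On the same arrays neuronal marker means ran from 7.86 to 8.34 and from 7.59 to 8.25, muscle means from 8.86 to 9.30 and from 8.68 to 9.69, and hypodermal means from 7.24 to 7.81 and from 7.19 to 7.60, and no gene on these 3 lists was called. Means of some other lists did not overlap in e1370 either. Acid phosphatases ran from 6.87 to 7.38 with *daf-16* and from 7.63 to 8.36 without. Superoxide dismutases and catalases ran from 10.37 to 11.14 and from 8.99 to 9.62. In m577 the mean of the 20 intestinal genes overlapped, from 8.62 to 9.56 with *daf-16* and from 9.2 to 9.93 without. Whether the intestine made up a different share of the RNA was not tested.

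*pept-1*, the intestinal peptide transporter, read 6.32, 5.17, 5.49, 5.75 and 5.85 with *daf-16* against 9.95, 7.19, 8.82, 9.33 and 8.80 in its absence, a difference of -3.10 ± 0.43 (limma adjusted p = 0.000155). Replicate 2 without *daf-16*, the array that stands apart, was its lowest there. *nhx-2*, the sodium-proton exchanger of the gut lining, read 6.22, 4.92, 5.65, 5.04 and 5.21 with *daf-16* against 9.11, 8.06, 8.39, 8.90 and 7.97 in its absence, a difference of -3.08 ± 0.41, with the groups well apart. The gut intermediate filament gene *ifb-2* fell by 2.61 ± 0.57 and the microvillar actin gene *act-5* by 2.12 ± 0.46, the latter with overlapping arrays. *ges-1*, a gut esterase long used to mark this tissue, was the member that rose, and read 10.55, 11.10, 11.34, 10.83 and 10.22 with *daf-16* against 9.52, 7.97, 8.74, 9.90 and 8.96 in its absence, a difference of 1.79 ± 0.33.

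Acid phosphatases of the pho family, several of them made in the intestine, fell in 5 of 11 cases and rose in none (median -1.21). On the probe set that stands for the gene, *pho-1* fell by 3.47 ± 0.33, and *pho-8* (-1.79 ± 0.45), *pho-4* (-1.61 ± 0.40), *pho-13* (-1.38 ± 0.26) and *pho-7* (-1.37 ± 0.24) fell less. *pho-1* is also counted among the falls of the intestinal transport and identity list above, so the lists are not separate. *pho-9* (-1.21 ± 0.39) and the remaining 5, from -0.30 ± 0.30 to 0.36 ± 0.26, were not called. Calls were lost for *pho-8* without replicates 3, 4 or 5 with *daf-16* or replicates 1 or 2 lacking it (adjusted p up to 0.078), and for *pho-4* without replicates 4 or 5 with *daf-16* or replicates 1, 3 or 4 lacking it (adjusted p up to 0.0751). The count for acid phosphatases lower was 3 without replicates 4 or 5 with *daf-16* or replicate 1 lacking *daf-16*. Phosphatase falls numbered 3 with the other-name block or the 1.2-fold test.

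**Figure D4:**
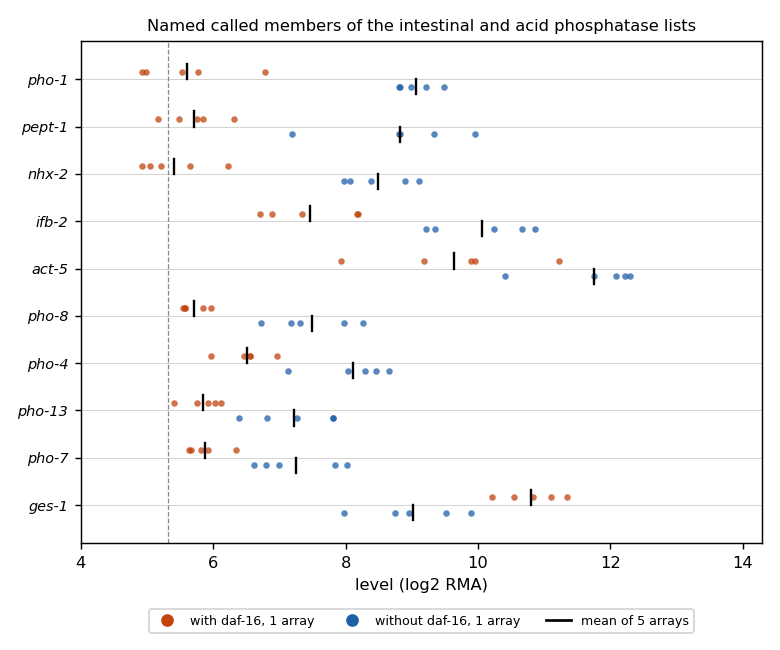
Level on each array (log2 RMA, x axis) of the named called members of the intestinal and acid phosphatase lists, with orange points for the 5 arrays with *daf-16*, blue points for the 5 without, black bars for means of 5 and a dashed line at the background level of 5.31. *ges-1* is higher with *daf-16* and the rest are lower, with overlapping arrays for *act-5*.

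Among 10 aquaporins *aqp-4* read 7.70, 7.82, 6.41, 6.14 and 6.47 with *daf-16* against 9.80, 9.99, 9.45, 9.96 and 9.36 in its absence, a difference of -2.81 ± 0.28, and *aqp-8* fell by 1.65 ± 0.44, a call lost without replicates 3, 4 or 5 with *daf-16* or replicates 1, 2 or 4 lacking it (adjusted p up to 0.108). The other 8 aquaporins lay between -1.32 ± 0.52 and 0.61 ± 0.25. Of 5 yolk protein genes, whose products the intestine secretes for the oocytes, *vit-1* fell by 2.27 ± 0.49 with overlapping arrays, and *vit-2*, *vit-4*, *vit-5* and *vit-6* lay between -0.68 ± 0.39 and -0.58 ± 0.44 and were not called. Of 45 lysosomal proteases and proton pump subunits 6 fell and 2 rose (median -0.21). *asp-17* had the largest fall, and the aspartyl protease *asp-1* (-1.38 ± 0.29), the intestinal pump subunit *vha-6* (-1.45 ± 0.34), *cpz-1* (-1.12 ± 0.14) and the cathepsin L gene *cpl-1* (-0.95 ± 0.22) also fell, while *asp-9* rose by 1.16 ± 0.23. The call of *vha-6* was lost without replicates 1 or 4 lacking *daf-16* (adjusted p up to 0.054). The second rise, that of the cathepsin B-like *cpr-2* (2.12 ± 0.59), was lost without replicates 1, 2 or 3 with *daf-16* or replicates 1, 2, 3, 4 or 5 lacking it (adjusted p up to 0.149). Lysosomal gene falls numbered 2 with the e1370 arrays alone, 3 with the other-name block or the 1.2-fold test and 11 with array weights.

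Lipid genes showed single strong changes and no common direction. *lipl-4*, a lysosomal lipase, read 9.19, 8.01, 8.86, 8.52 and 7.77 with *daf-16* against 5.41, 5.48, 5.58, 5.67 and 5.88 in its absence, a difference of 2.87 ± 0.25 (limma adjusted p = 5.87e-07), with all arrays with *daf-16* higher, and *lips-15* rose by 1.74 ± 0.28, of 29 lipases (median 0.05). Of 22 desaturases and elongases, *fat-7*, a stearoyl-CoA desaturase, fell and read 7.20, 7.25, 6.89, 7.07 and 7.12 with *daf-16* against 8.84, 8.52, 9.73, 8.97 and 8.87 in its absence, a difference of -1.88 ± 0.21. Its close relative *fat-6* rose by 0.46 ± 0.09 and the palmitoyl-CoA desaturase *fat-5* by 1.56 ± 0.41, the latter a call lost without replicates 1, 2 or 3 with *daf-16* or replicates 1, 3 or 5 lacking it (adjusted p up to 0.1). The call of *fat-6* was lost under 2 other settings (limma adjusted p up to 0.377). Of 9 fatty acid binding proteins *lbp-7* fell by 2.37 ± 0.55 and *lbp-8*, which carries lipid from lysosome to nucleus, differed by 1.41 ± 0.51 without a call. Of 8 fatty acid and retinol binding proteins *far-7* rose from 5.90 ± 0.12 to 9.06 ± 0.92, a difference of 3.17 ± 0.37, and *far-3* rose by 2.05 ± 0.27. *far-6* fell by 0.90 ± 0.22, a call lost without replicate 2 with *daf-16* or replicates 1 or 4 lacking it (adjusted p up to 0.053).

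In fatty acid activation and beta-oxidation 4 of 60 genes rose and 2 fell (median -0.18), with 43 of the 60 below 0. The array means of this list overlapped, from 8.01 to 8.23 with *daf-16* and from 7.95 to 8.72 without, and its m577 median was 0.04. *hacd-1* (2.63 ± 0.32), a 3-hydroxyacyl-CoA dehydrogenase, *acs-17* (2.20 ± 0.39), *acs-21* (1.5 ± 0.21) and *acdh-6* (0.46 ± 0.11) rose, and *acox-1.2* (-2.78 ± 0.48), a peroxisomal acyl-CoA oxidase, and *cpt-6* (-1.78 ± 0.36) fell. The mean of *acdh-6* without *daf-16* was at background (5.02 ± 0.09), and its call was lost under 2 other settings (limma adjusted p up to 0.622). The count for beta-oxidation genes lower was 4 without replicate 1 with *daf-16*, 8 without replicate 2 lacking *daf-16*. With array weights 12 of these genes fell. In the glyoxylate cycle and gluconeogenesis 1 of 9 rose, *pck-1*, a phosphoenolpyruvate carboxykinase (1.71 ± 0.43), with its call lost without replicates 1, 2 or 3 with *daf-16* or replicates 3 or 5 lacking it (adjusted p up to 0.0765) and 2 of the 9 called without replicate 1 lacking *daf-16*. *icl-1*, the glyoxylate cycle enzyme of nematodes, differed by 1.47 ± 0.57 and *pck-2* by 1.00 ± 0.29, neither called. None of 16 glycolysis genes was called (median 0.16), with the glyceraldehyde phosphate dehydrogenase *gpd-3* at 0.70 ± 0.23, and the 3 control probe sets for that enzyme, outside the tested set, differed by 0.77 to 0.99. The count for glycolysis genes higher was 2 without replicates 1 or 4 lacking *daf-16*. None of 26 citric acid cycle genes was called either (median 0.02), and 3 fell with array weights.

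Of 17 trehalose and glycogen genes 3 rose and 2 fell (median 0.17). *gob-1*, a trehalose phosphatase, rose by 0.81 ± 0.18, and the trehalases split, with *tre-5* (0.64 ± 0.14) and *tre-4* (0.85 ± 0.21) higher and *tre-3* (-1.36 ± 0.24) lower. *aagr-2*, an acid alpha-glucosidase, fell by 1.52 ± 0.39. Calls were lost for *tre-4* without replicates 1, 3 or 4 with *daf-16* or replicates 2, 3 or 5 lacking it (adjusted p up to 0.0718), and for *aagr-2* without replicates 1, 2 or 4 with *daf-16* or replicates 1, 3, 4 or 5 lacking it (adjusted p up to 0.0951). The count for trehalose and glycogen genes lower was 1 without replicates 1, 2 or 4 with *daf-16* or replicates 1, 3, 4 or 5 lacking *daf-16*, 4 without replicate 2 lacking *daf-16*. Trehalose and glycogen rises numbered 0 with the 1.2-fold test and 1 with array weights, the e1370 arrays alone or the low-sperm arrays left out. Of 20 methionine cycle and phosphocholine genes 4 fell and 1 rose (median -0.27), with 17 of the 20 below 0. The array means of this list overlapped, from 8.21 to 8.65 with *daf-16* and from 8.42 to 9.24 without, and its m577 median was -0.13. *sams-1*, the S-adenosylmethionine synthetase that feeds phosphatidylcholine synthesis, read 10.17, 9.62, 8.85, 7.94 and 9.25 with *daf-16* against 12.06, 10.36, 11.31, 11.94 and 10.66 in its absence, a difference of -2.10 ± 0.49. The phosphoethanolamine methyltransferase *pmt-2* (-0.77 ± 0.17), *ckb-2* and the cystathionine gamma-lyase *cth-1* (-1.50 ± 0.39) fell with it, and *sams-5* rose by 1.21 ± 0.25, while the call of *cth-1* was lost without replicates 2, 3 or 4 with *daf-16* or replicates 1 or 4 lacking it (adjusted p up to 0.0983). The count for methionine cycle genes higher was 2 without replicate 2 with *daf-16*. Methionine cycle falls numbered 1 with the e1370 arrays alone or the other-name block and 2 with the 1.2-fold test. *hpd-1*, an enzyme of tyrosine breakdown, fell (-1.50 ± 0.33), and *tatn-1*, the tyrosine aminotransferase, differed by 0.57 ± 0.45 without a call, among 5 such genes.

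Among signalling genes of the insulin pathway, only *akt-2* had a call that was kept under every setting tried. Of 11 pathway genes 3 rose and none fell (median 0.22). *akt-2*, 1 of the kinases that phosphorylate DAF-16, read 9.35, 8.95, 9.35, 9.14 and 8.89 with *daf-16* against 7.46, 6.17, 6.97, 7.01 and 6.79 in its absence, a difference of 2.26 ± 0.30 (limma adjusted p = 9.49e-05), with no overlap. *akt-1* rose by 1.43 ± 0.36 and *pdk-1* by 1.22 ± 0.33, and these calls were lost for *akt-1* without replicates 3 or 4 with *daf-16* or replicates 1 or 4 lacking it (adjusted p up to 0.0615), and for *pdk-1* without replicates 1, 4 or 5 with *daf-16* or replicates 1, 2, 4 or 5 lacking it (adjusted p up to 0.118). Pathway gene rises numbered 1 with the e1370 arrays alone, the other-name block or the 1.2-fold test. The phosphatidylinositol kinase *age-1* (-0.17 ± 0.42), the phosphatase *daf-18* (-0.18 ± 0.70), *sgk-1* (-1.08 ± 0.31), *aap-1* (0.22 ± 0.77), *ist-1* (0.60 ± 0.22) and *pptr-1* (-0.07 ± 0.20) were not called.

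Of 24 insulin-like peptide genes, which encode ligands of the receptor, 3 rose and 1 fell (median 0.14). *ins-7*, an agonist of DAF-2 made in the intestine and neurons, read 7.42, 9.26, 6.19, 5.95 and 6.17 with *daf-16* against 9.60, 11.43, 9.75, 9.61 and 9.70 in its absence, a difference of -3.02 ± 0.54. *ins-35* (2.30 ± 0.35), *ins-22* (1.92 ± 0.32) and *ins-23* (1.51 ± 0.22) rose. In the AMPK and TOR pathways 2 of 23 genes rose and none fell (median 0.06), both subunits of the AMP-activated kinase. *aakg-4*, a gamma subunit, read 9.41, 9.40, 8.90, 8.86 and 8.53 with *daf-16* against 6.63, 6.44, 6.37, 6.26 and 6.58 in its absence, a difference of 2.56 ± 0.21, and the beta subunit *aakb-1* rose by 1.33 ± 0.22. Of 15 dauer hormone and TGF-beta genes *daf-36*, the Rieske oxygenase that begins dafachronic acid synthesis, fell by 1.89 ± 0.22.

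Nuclear hormone receptors were called in 9 of 259 cases, 4 higher (1.54%) and 5 lower (1.93%), with a median of 0.00, with *nhr-206* (1.24 ± 0.20) and *nhr-208* (0.83 ± 0.10) higher and *nhr-55* (-1.26 ± 0.22), *nhr-50* (-1.10 ± 0.21), *nhr-63* (-1.01 ± 0.19) and *nhr-176* (-0.92 ± 0.22) lower. The calls of *nhr-69* (0.67 ± 0.16), *nhr-92* (1.02 ± 0.26) and *nhr-210* (-0.57 ± 0.15) did not hold when certain single arrays were left out. They were lost for *nhr-69* without replicate 1 with *daf-16* or replicate 5 lacking it (adjusted p up to 0.0523), for *nhr-92* without replicates 1, 3 or 4 with *daf-16* or replicates 2, 3 or 5 lacking it (adjusted p up to 0.0794), and for *nhr-210* without replicates 2 or 5 with *daf-16* or replicates 4 or 5 lacking it (adjusted p up to 0.0924). The count for nuclear hormone receptors higher was 2 without replicate 1 with *daf-16* or replicate 5 lacking *daf-16*, 7 without replicate 5 with *daf-16* or replicate 2 lacking *daf-16*. Receptor rises numbered 2 with the e1370 arrays alone, the 1.2-fold test or the low-sperm arrays left out and 7 with array weights. Their falls numbered 2 with the other-name block, 3 with the e1370 arrays alone, the 1.2-fold test or the low-sperm arrays left out and 8 with the germ cell covariates. Neuropeptide genes rose in 5 of 86 cases and fell in none (median 0.32 against -0.001 over all genes), and 71 of the 86 lay above 0. Their mean ran from 6.75 to 7.65 on arrays with *daf-16* and from 6.42 to 7.36 on those without. The groups thus overlapped, and the m577 median of these genes was -0.05. *nlp-39* (2.80 ± 0.37), *nlp-35* (1.7 ± 0.31) and *nlp-1* (1.02 ± 0.22) led them. *nlp-21* (0.89 ± 0.21) and *flp-24* (0.82 ± 0.22) rose less, and their calls were lost for *nlp-21* without replicate 3 lacking *daf-16* (adjusted p up to 0.0599), and for *flp-24* without replicates 1, 3 or 4 with *daf-16* or replicates 1, 3 or 5 lacking it (adjusted p up to 0.104). The count for neuropeptides higher was 3 without replicate 3 lacking *daf-16*, 8 without replicate 2 lacking *daf-16*, 13 without replicate 5 with *daf-16*. Neuropeptide rises numbered 2 with the e1370 arrays alone or the 1.2-fold test, 3 with cyclic loess or the low-sperm arrays left out, 8 with the other-name block and 9 with the replicate block. Cuticle collagens rose in 3 of 145 cases (2.07%) and fell in none (median 0.20), with 128 of the 145 above 0. Their array means overlapped, from 8.16 to 9.45 with *daf-16* and from 7.69 to 8.86 without, and their m577 median was 0.22. *col-50* rose by 2.60 ± 0.41 after *col-183*, and *col-139* by 2.71 ± 0.70, with its call lost without replicates 1, 2, 3 or 5 with *daf-16* or replicates 3 or 5 lacking it (adjusted p up to 0.0832). Collagen rises numbered 10 with the germ cell covariates. Of 36 histone genes the linker histone *hil-1* read 9.89, 8.44, 9.95, 9.42 and 9.25 with *daf-16* against 7.30, 7.15, 6.74, 7.08 and 6.79 in its absence, a difference of 2.38 ± 0.21, and *his-42* rose by 0.83 ± 0.15 (median 0.00). The count for histones higher was 4 without replicate 5 with *daf-16*.

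Large groups of housekeeping genes held no called member. These were 66 cytosolic ribosomal proteins (median 0.01), 56 mitochondrial ribosomal proteins (0.14), 72 translation factors and tRNA synthetases (-0.12), 31 proteasome subunits (-0.06), 49 respiratory chain and ATP synthase subunits (0.15) and 38 RNA polymerase and Mediator subunits (0.09). The cytosolic ribosomal proteins were the tightest, from -0.35 to 0.23. None of 31 autophagy genes (median 0.06) and none of 26 other regulators of lifespan (median -0.01) was called, and in the latter the farthest from 0 were *zip-2* at -0.74 ± 0.36 and *mxl-3* at -0.59 ± 0.41. The 74 sperm markers (median -0.12) and 63 oocyte and germ cell markers (median -0.21) also had no call, although 50 of the 63 lay below 0 and *cpg-9* was at -1.86 ± 0.84. Array means of the oocyte and germ cell markers overlapped, from 7.87 to 9.74 with *daf-16* and from 7.73 to 10.05 without. Leaving out 1 array gave at most 1 call in either direction on any of these lists.

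The same deletion was measured in *daf-2*(m577) on 10 other arrays, where 404 probe sets were called (1.79%), 270 higher and 134 lower. Of the 541 rises in e1370, 516 (95.4%) were positive in m577, against 55.1% of all probe sets, and of the 446 falls 416 (93.3%) were negative. In m577, 172 of the rises and 103 of the falls were called the same way, 31.8% and 23.1% of the e1370 calls, and none was called the opposite way. The median m577 difference of these genes was 0.67 for the rises and -0.70 for the falls. A call missed in m577 does not show that the alleles differ, so the difference between the alleles was tested itself.

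That test called 40 probe sets (0.177%), 22 more positive and 18 more negative in e1370. Of the 40, 38 were also called in e1370, and 37 had the larger size there. The count was 67 without replicate 2 lacking *daf-16*, 25 without replicate 3 or without replicate 4 lacking it, and 71 without replicate 5 with *daf-16*. *cdr-3* read 8.84, 10.07, 9.51, 8.69 and 7.63 with *daf-16* against 4.62, 4.72, 4.61, 4.69 and 4.68 in its absence, while its m577 difference was 0.50 ± 0.29, an allele difference of 3.78 ± 0.40 (limma adjusted p = 0.000113). *F40G12.5* (3.22 ± 0.28 in e1370 and 0.34 ± 0.28 in m577), *far-7* (3.17 ± 0.37 and 0.34 ± 0.37), *dod-3* (3.85 ± 0.36 and 1.12 ± 0.36), *gst-3* (3.35 ± 0.27 and 0.70 ± 0.27) and *cyp-13B1* (2.52 ± 0.27 and -0.04 ± 0.27 on probe set 185599_s_at) followed. On 172790_x_at, the probe set that stands for *cyp-13B1*, the differences were 2.69 ± 0.26 in e1370 and 0.31 ± 0.26 in m577. Adjusted p-values of the allele difference for these 6 genes lay between 0.000113 and 0.0318 in limma.

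In the other direction the lysozyme *ilys-5* fell in e1370 (-5.91 ± 0.24) and differed by -0.16 ± 0.24 in m577, an allele difference of -5.76 ± 0.35 (limma adjusted p = 5.36e-08). *C17H12.8* read 6.49, 6.09, 6.29, 6.71 and 8.07 with *daf-16* against 10.67, 9.81, 10.13, 10.46 and 9.17 in its absence in e1370, and in m577 its difference was 0.15 ± 0.36. Replicate 5 of each e1370 genotype lay nearest to the other genotype. *C32H11.4* (-6.32 ± 0.39 in e1370 and -2.14 ± 0.39 in m577), *irg-5* (-4.37 ± 0.35 and -0.45 ± 0.35), *dod-24* (-5.27 ± 0.34 and -2.15 ± 0.34) and *C17H12.6* (-4.30 ± 0.28 and -1.83 ± 0.28) completed the 6 largest. *fat-7* also differed between alleles, falling in e1370 and differing by 0.03 ± 0.21 in m577 (limma adjusted p of the allele difference = 0.00671).

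**Figure D5:**
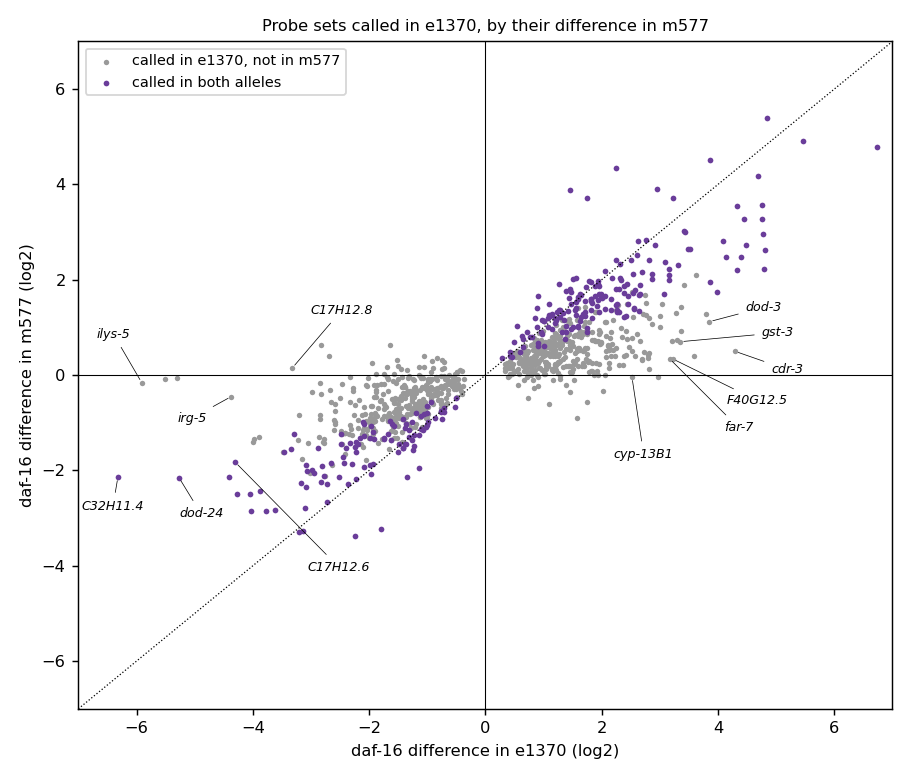
*daf-16* difference in e1370 (x axis, log2) against that in m577 (y axis, log2) for the 987 probe sets called in e1370, in purple where m577 was also called the same way. The dotted line marks equal differences, and the names mark the 6 largest called allele differences in each direction.

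Called genes were spread over all 6 chromosomes and often lay next to each other. Shares of genes higher ran from 1.73% on chromosome III to 3.47% on chromosome V, and shares lower from 1.01% on chromosome I to 2.90% on chromosome V. Of 427 genes higher with a placed neighbour, 82 (19.2%) lay next to another gene that rose, against 4.65% of all 15650 genes considered. For genes lower the figures were 67 of 357 (18.8%) and 3.85%. The longest run was 7 consecutive measured genes on chromosome IV that all fell, with differences from -3.90 to -0.65, from *F55G11.6* through *F55G11.7*, *F55G11.8*, *dod-22*, *F55G11.2* and *mbug-1* to *dod-17*. A run of 4 on the same chromosome, *drd-50*, *F49F1.5*, *mul-1* and *F49F1.7*, also fell, and on chromosome II the F-box genes *fbxa-163*, *fbxa-164* and *fbxa-165* rose together. Neighbouring genes can share sequence, and shared probes were not examined.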

How the data were processed

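The values are deposited log2 levels: per the labels' protocols, the authors converted scanner images in Microarray Suite and ran RMA on all 20 arrays together, which gives arrays similar distributions and would hide a change in total RNA. The log2 scale was read from the values. Of 22625 probe sets, 77 controls were left out. The platform annotation gave 1 symbol to 20766 of the 22548 tested, several to 887 and none to 895, and only the first were named, while 20701 were matched to RefSeq genes on WBcel235 for names and gene order. The sources used here do not name the assembly behind the array, so coordinates are left out.

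Groups came from the genotypes in the labels, and columns were matched by sample name. Means of the 4 genotypes were fitted over all 20 arrays in limma 3.58.1 (R 4.3.3; lmFit, contrasts.fit, eBayes) with no covariates, 2-sided, with Benjamini-Hochberg adjustment within each contrast, and it was tested on simulated data. Bacillus controls set the background level, since no detection calls were used here. The number of arrays limits the precision.

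The named genes were all probe sets of *daf-16*, *daf-2* and *glp-4*, the 15 largest called non-overlapping rises and falls, up to 5 called members in each direction of each of 61 lists (or the 2 farthest from 0), all members of lists of up to 12, and the 6 largest allele differences each way. Some members that were not called are given by their range. The members and lists were chosen with earlier results of these data known. Alternatives were normalization, filters, variance models, covariates, blocks and arrays left out. Figures were drawn with matplotlib 3.10.9. A planned count of promoter motifs was not run, as no promoter sequence was used here.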

Additional observations from a re-analysis of the deposited data

Results flagged for a closer look

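Among 620 sets of 5 arrays, made up of each genotype and named probe set, 54 had 1 array far from the other 4, by a gap to the nearest array of more than 0.71 of the whole range. Independent sets would give about 1 in 20. Replicate 2 without *daf-16*, which also had the lowest mean correlation with its genotype, was that array in 28 sets, which is more than any other array. It was above the other 4 for *abf-2* (9.80), *acdh-6* (5.18), *alh-2* (5.76), *daf-16* probe set 181992_s_at (6.04), *daf-2* probe set 176986_s_at (5.13), *dod-3* (9.27), *far-4* (6.20), *fipr-26* (7.34), *haf-1* (5.69), *hsp-12.6* (5.36), *ins-35* (7.37), *ins-7* (11.43), *nhr-176* (8.00), *scl-20* (7.14), *sod-4* (9.32), *sod-5* (7.12), *ttr-25* (11.57), *ttr-26* (7.71) and *ubl-5* (10.49). It was below them for *aagr-2* (9.79), *acs-19* (8.12), *dod-19* (11.95), *hpd-1* (9.56), *irg-8* (10.97), *sgk-1* (7.22), *vha-6* (10.23), *vit-4* (12.55) and *vit-5* (12.55). Replicate 5 with *daf-16* was below the others for *F40G12.5* (6.47), *aqp-2* (8.99), *col-50* (7.43), *gob-1* (7.95), *hsp-12.3* (10.99), *hsp-16.2* (7.05) and *sod-5* (7.07). Replicate 1 without *daf-16* was high for *thn-1* (6.29). Replicate 3 without *daf-16* was low for *ins-23* (5.46). Replicate 4 without *daf-16* was high for *ckb-2* (10.01), *ugt-11* (7.33) and *ugt-9* (9.70) and was low for *cyp-34A9* (8.10). Replicate 5 without *daf-16* was high for *F15B9.6* (8.45) and was low for *fat-5* (8.59) and *zip-2* (9.76). Replicate 1 with *daf-16* was high for *nlp-21* (7.70), *pgp-5* (5.96), *pho-1* probe set 175238_s_at (6.70), *snt-1* (7.74) and *thn-1* (8.34). Replicate 2 with *daf-16* was low for *aqp-3* (6.05), *daf-16* probe set 175823_s_at (7.09) and *irg-4* (9.40). Replicate 3 with *daf-16* was low for *mrps-17* (9.09). Replicate 4 with *daf-16* was low for *col-139* (11.32).

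Differences between the alleles were called for 23 probe sets among the named genes, by the limma test of the difference itself at an adjusted p under 0.05. The *daf-16* difference was more positive in e1370 than in m577 for *F40G12.5* (2.88), *K03D3.2* (2.56), *cdr-3* (3.78), *cyp-13B1* probe set 172790_x_at (2.38), *cyp-13B1* probe set 185599_s_at (2.57), *djr-1.2* (2.35), *dod-3* (2.74), *far-7* (2.82), *gst-15* (1.87), *gst-3* (2.65), *gst-41* (1.94), *nhr-208* (0.74) and *spi-2* (2.12), with the allele difference on the log2 scale in parentheses. It was more negative in e1370 for *C17H12.6* (-2.47), *C17H12.8* (-3.47), *C32H11.4* (-4.18), *dod-23* (-1.80), *dod-24* (-3.12), *fat-7* (-1.91), *ilys-5* probe set 173051_s_at (-5.76), *ilys-5* probe set 194255_x_at (-5.24), *irg-5* (-3.92) and *irg-8* (-2.27).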

How the results depend on the processing

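The count of 987 called probe sets for the *daf-16* difference in e1370 was 813 to 1245 when 1 of the 10 arrays was left out, the highest without replicate 2 lacking *daf-16*. It moved to 507 in a fit of only the 10 e1370 arrays and to 616 when tested against a 1.2-fold change. Under the other settings the total stayed within 1.5 times, from 709 with the number in each array's other name as a block to 1458 with array quality weights. The falls moved more, from 446 to 250 with that block and to 745 with the weights. The 541 rises became 459 and 713 under the same 2 settings. No called probe set changed direction under any setting.

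The count of 40 for the difference between alleles ranged from 25 to 71 with 1 array left out. It was 16 with the 3' minus 5' covariate, 1113 with array quality weights, 6 with the other-name block, 104 with sperm and oocyte covariates, 24 against a 1.2-fold change and 26 without both arrays with low sperm markers. The causes were not tested. A replicate block gave 1032 and 40 calls. Arrays that share a replicate number correlated from -0.308 to 0.815 in their deviations, and 4 of 10 arrays correlated best with their own replicate number. Arrays that share the number in their other name correlated from -0.604 to 0.765. Neither number was taken to pair the arrays.

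Of 195 called values of named probe sets, 130 kept their call under all 24 other settings that could be fitted, 166 without any 1 array, and 0 reversed. The fit of only the e1370 arrays lost 59, the 1.2-fold test 42 and the other-name block 34. The promoter motif alternative was not run. Where a genotype mean is near background, the size of a difference is limited.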

Other observations

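Genes with several probe sets allowed a check within the arrays. Of 106 called genes with more than 1 probe set of a single symbol, 100 had every probe set on the same side of 0, 58 had every probe set called the same way, and none had a probe set called the opposite way. Probe sets of a gene can share sequence, so they are not independent.

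Further runs of neighbouring called genes were short. *Y58A7A.3*, *Y58A7A.4* and *Y58A7A.5* on chromosome V fell together, with differences from -2.25 to -0.87, and *ZK896.5*, *ZK896.4* and *K08D8.6* on chromosome IV did so with differences from -2.09 to -1.74. On chromosome II the chitinase-like *chil-8* and *chil-2* rose with the neighbouring *ctsa-3.2*, by 0.41 to 1.42.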
